A study of Mus musculus with 14 samples.

Results

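The genes described here are the lipid-sensing nuclear receptors and the sterol regulatory element-binding proteins (SREBPs) of the mouse. They are the peroxisome proliferator-activated receptors (PPARs) Ppara, Ppard and Pparg, the coactivator Ppargc1a (PGC-1α), the retinoid X receptors Rxra and Rxrb, the liver X receptors (LXRs) Nr1h2 and Nr1h3, and the SREBP genes Srebf1 and Srebf2. They were listed by name, and all 10 were found among 21440 protein-coding genes with an annotated start. The measurement was histone H3 lysine-4 trimethylation (H3K4me3), a mark found at gene starts that are active or poised, mapped by CUT&Tag (cleavage under targets and tagmentation). The sample titles name a related method, CUT&RUN, while the extract protocol and the study's methods describe tagmentation as given here. CUT&Tag brings a transposase to the marked chromatin through an antibody, so that DNA fragments pile up where the mark lies.

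PPARs bind fatty acids and their derivatives and switch on genes of fatty acid oxidation and lipid storage. LXRs bind oxysterols and switch on genes of cholesterol export, and each PPAR or LXR works as a heterodimer with an RXR. SREBPs are held in the endoplasmic reticulum while sterols are plentiful and, once cut free, enter the nucleus to switch on genes of cholesterol and fatty acid synthesis. In the BM (bone marrow), these factors are best known from macrophages, and LXR, PPARδ and cholesterol handling have also been tied to stem cell maintenance and proliferation.

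The cells were LSK cells (lineage-negative, Sca-1+, c-Kit+), a stem and progenitor population sorted from BM. The donors were male C57BL/6J mice with no transgene or deletion. They were put on diet at 3 to 4 wk of age and fed for 16 to 20 wk, either with 60% of kcal from fat (HFD-LSK, 3 libraries) or with 10% of kcal from fat and the same protein content (LFD-LSK, 4 libraries). The labels do not say how many mice made up a library, nor whether libraries came from separate mice, so p-values here measure the spread between these libraries, which may in part be technical. The study profiled LSK cells in more than 1 cohort of mice and allowed for batch and pairing, but the labels name no cohort, so no value within a cohort could be given here. The comparison asks whether the mark at these genes differed with diet. The 7 IgG control libraries were not analysed here.

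Each library had its own list of peaks, and a gene was called in a list when a peak reached within 1 kb of any of its annotated starts. Where several peaks did, the peak with the highest fold enrichment stood for the gene. The fold enrichment is the ratio of the peak's summit to its local background. It depends on depth, so its rank in the list (rank 1 is the highest fold, with ties averaged) was compared and not the fold itself. The study's methods define peaks by their excess over a matched IgG control. Calls, ranks and widths may therefore also depend on the IgG libraries, and that was not tested. Since ranks grow with the length of a list, a percentile is also given: the share of all protein-coding start peaks in the same list with a lower fold.

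The lists held 9186 to 13094 peaks in HFD-LSK and 6921 to 10572 in LFD-LSK, and the 2 shortest were LFD-LSK replicates 4 and 1. They called 42.0% to 52.5% of protein-coding starts in HFD-LSK and 31.1% to 45.7% in LFD-LSK. Among starts called in all 7 lists, 92.5% were wider in HFD-LSK, with a median difference of 279 bp. Their median difference in rank was 663 places, with the larger rank numbers in HFD-LSK, and rank numbers grow with list length. The weakest called summit held 4 to 16 fragments across the HFD-LSK lists and 8 to 21 across the LFD-LSK lists. A start with fewer fragments goes unlisted, so a gene without a call may still carry the mark. A call in part of the cells and a weaker mark in all of them cannot be told apart. Of 12 stem and progenitor markers, 6 were called in all 7 lists, Kit and Cd34 among them, and Ly6a (Sca-1), used in the sort, was called in none. The Kit peak was wider in HFD-LSK (difference 2026 bp, exact permutation p = 0.0286, adjusted p = 0.720), and by 490 bp without HFD-LSK replicate 2. Of the 6 T, B and NK cell markers, 0 were called in any list, and of 18 markers of mature myeloid, erythroid, adipocyte, liver and stromal cells, 0 were called in all 7 and 5 in part of them.

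The stretches of sequence before the starts are shown first, because several members have more than 1 start and the mark was found at some of them only. Each runs 250 bases up to the base before the start, 5′ to 3′ on the gene's strand, from RefSeq on build GRCm38.p6. Capitals mark CG dinucleotides, which are dense in CpG islands. The 3 starts that follow carried a peak in 6 or 7 lists.
Rxrb, chr17:34031562-34031811, + strand, 31 CG, called in 7 lists: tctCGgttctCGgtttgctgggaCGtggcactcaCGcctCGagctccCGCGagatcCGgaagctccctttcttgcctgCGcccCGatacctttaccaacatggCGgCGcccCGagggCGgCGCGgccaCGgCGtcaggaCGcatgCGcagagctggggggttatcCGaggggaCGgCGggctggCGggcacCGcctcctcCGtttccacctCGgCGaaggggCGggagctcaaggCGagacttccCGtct
Srebf2, chr15:82147019-82147268, + strand, 25 CG, called in 6 lists: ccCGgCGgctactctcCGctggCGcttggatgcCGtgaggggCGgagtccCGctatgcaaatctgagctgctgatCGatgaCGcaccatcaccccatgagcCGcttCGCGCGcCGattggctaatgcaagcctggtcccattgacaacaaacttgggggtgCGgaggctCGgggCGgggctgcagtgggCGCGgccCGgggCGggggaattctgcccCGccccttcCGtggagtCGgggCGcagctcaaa
Pparg, chr6:115360894-115361143, + strand, 38 CG, called in 6 lists: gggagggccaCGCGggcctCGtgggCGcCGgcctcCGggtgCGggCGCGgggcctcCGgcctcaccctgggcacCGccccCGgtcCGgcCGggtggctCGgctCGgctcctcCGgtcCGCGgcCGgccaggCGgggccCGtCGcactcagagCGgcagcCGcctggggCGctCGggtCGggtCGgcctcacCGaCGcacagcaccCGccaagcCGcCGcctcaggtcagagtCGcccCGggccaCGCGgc
The next start of Srebf1 was called in 6 lists with few CG dinucleotides, and the last pair, of Pparg and Ppargc1a, had no peak within 1 kb in any list.
Srebf1, chr11:60220628-60220877, − strand, 9 CG, called in 6 lists: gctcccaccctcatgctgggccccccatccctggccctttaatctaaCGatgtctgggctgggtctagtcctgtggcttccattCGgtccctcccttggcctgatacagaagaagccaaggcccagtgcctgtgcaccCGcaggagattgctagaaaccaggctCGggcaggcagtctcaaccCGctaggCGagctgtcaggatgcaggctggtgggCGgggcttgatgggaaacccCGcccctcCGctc
Pparg, chr6:115421816-115422065, + strand, 2 CG, called in 0 lists: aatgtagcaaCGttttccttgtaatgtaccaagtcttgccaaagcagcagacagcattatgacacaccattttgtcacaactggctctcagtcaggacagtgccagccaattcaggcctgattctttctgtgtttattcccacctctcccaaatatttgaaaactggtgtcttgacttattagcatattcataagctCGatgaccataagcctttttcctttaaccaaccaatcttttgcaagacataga
Ppargc1a, chr5:51567726-51567975, − strand, 5 CG, called in 0 lists: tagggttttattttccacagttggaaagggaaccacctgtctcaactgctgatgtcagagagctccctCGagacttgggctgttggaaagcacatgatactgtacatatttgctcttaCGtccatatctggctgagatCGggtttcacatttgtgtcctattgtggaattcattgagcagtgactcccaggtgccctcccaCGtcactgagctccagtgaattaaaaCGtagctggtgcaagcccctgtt

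All 10 genes had a start peak in at least 1 list, against 54.6% of protein-coding genes. Ppard, Rxrb and Nr1h3 were called in all 7 lists, against 22.3% of protein-coding genes. Pparg, Nr1h2, Srebf1 and Srebf2 were called in 6 lists, Ppara and Rxra in 5, and Ppargc1a in 3. The HFD-LSK lists called 9.33 ± 1.15 of the 10 (SD, n = 3) and the LFD-LSK lists 7.5 ± 1.73 (SD, n = 4). Of all protein-coding starts, the lists called 46.9 ± 5.28% in HFD-LSK and 39.1 ± 6.94% in LFD-LSK (SD), a difference in the same direction. In HFD-LSK replicates 2 and 3 all 10 were called, and the lowest counts, 6 each, came from the 2 shortest lists. None of the 10 was called in every list of 1 diet and in none of the other, a split seen at 0.290% of the protein-coding starts called at least once. The lowest p for a call was 0.429 (Fisher's exact test, two-sided, Rxra). None of the 3 members called in all lists passed the rank test or the width test at p under 0.05 (exact permutation over 35 arrangements, smallest possible p 0.0286), which 3.77% and 3.62% of the starts called in all 7 lists did. Of all starts past the width test, 173 were wider in HFD-LSK and 0 narrower. Of those past the rank test, 163 had larger rank numbers in HFD-LSK and 17 smaller ones. Across all genes no start passed either test after Benjamini-Hochberg adjustment (smallest adjusted p 0.758 for rank, 0.720 for width). With a smallest possible p of 0.0286, a start could pass adjustment only if a large share of all tested starts reached that p. The adjusted values therefore cannot show that the diets were alike.

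**Figure D1:**
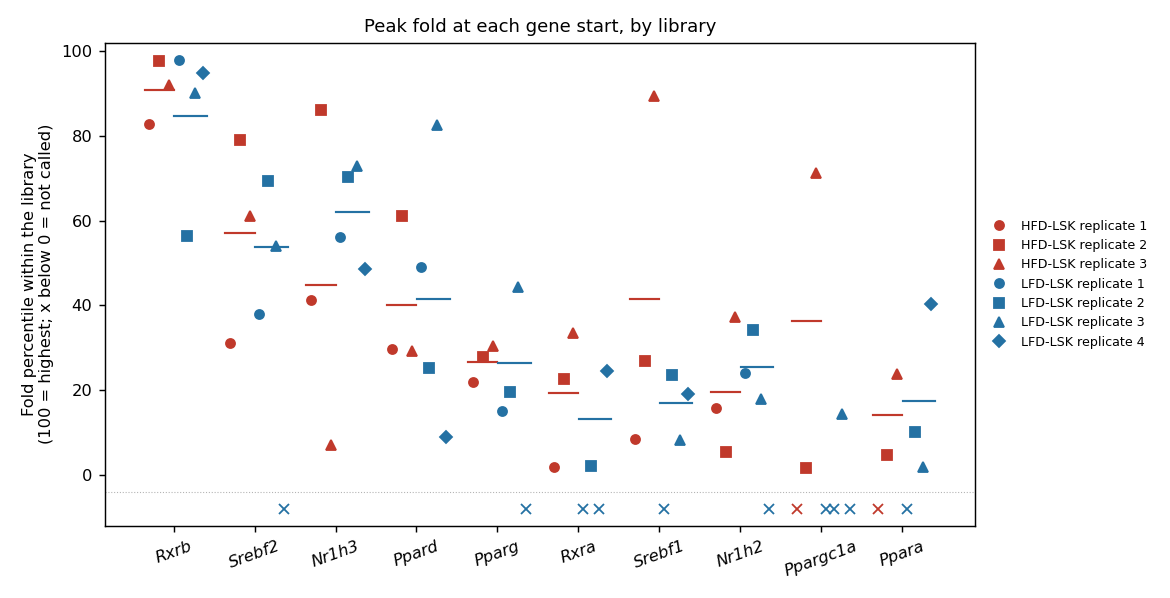
Fold percentile of each gene's start peak among all protein-coding start peaks of the same library (y axis, 100 is the highest), for the 10 genes ordered by their median. Symbols are the 3 HFD-LSK (red) and 4 LFD-LSK (blue) libraries, lines are means of called libraries where 2 or more called the gene, and crosses below 0 mark libraries without a call. Rxrb lies at 82.7 or above in 6 of 7 libraries, and the red and blue symbols overlap at every gene called in 2 or more libraries of each diet.

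Among the PPARs, Ppard (chromosome 17, 28232754-28301469, + strand), the receptor found in most tissues and known for fatty acid oxidation, was the member called in every list. Its ranks were 5833, 3893 and 7613 in HFD-LSK replicates 1 to 3 and 3330, 7086.5, 1324.5 and 5860 in LFD-LSK replicates 1 to 4. The groups overlapped, with the smallest rank number in LFD-LSK replicate 3 and the largest in HFD-LSK replicate 3. By fold percentile, LFD-LSK replicate 4 was lowest, at 8.95, against 29.4 in HFD-LSK replicate 3. The mean rank was 5780 ± 1861 in HFD-LSK and 4400 ± 2579 in LFD-LSK (SD, n = 3 and 4, difference 1379, exact permutation p = 0.457, adjusted p = 0.936). That difference was 354 when LFD-LSK replicate 3 was left out and 463 when HFD-LSK replicate 3 was, against 2275 when LFD-LSK replicate 2 was left out and 2323 when HFD-LSK replicate 2 was. Its peak was 694, 1098 and 703 bp wide in HFD-LSK and 551, 418, 1006 and 244 bp wide in LFD-LSK. The mean widths of 832 ± 231 bp and 555 ± 326 bp differed by 277 bp (exact permutation p = 0.286, adjusted p = 0.724), beside a median difference of 279 bp over all such starts. It ranged from 144 bp without HFD-LSK replicate 2 and 173 bp without LFD-LSK replicate 4 to 427 bp without LFD-LSK replicate 3. As a percentage of list length, the rank difference was -0.0383 points, so the order of the diets turned with the scale.

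Pparg (chromosome 6, 115360879-115490404, + strand), the regulator of fat cell differentiation, was called in every list except that of LFD-LSK replicate 4. Its ranks were 6626, 7831.5 and 7490 in HFD-LSK and 5999.5, 7749 and 4791 in LFD-LSK replicates 1 to 3. The summits lay 49 to 347 bp downstream of the start whose sequence is given above with 38 CG. The widths were 789, 1155 and 531 bp in HFD-LSK and 547, 312 and 800 bp in LFD-LSK, so the groups overlapped. The start 61187 bp into the gene, from which the fat cell form PPARγ2 is made, was called in 0 of 7 lists, and the sequence before it holds 2 CG.

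Ppara (chromosome 15, 85734910-85806851, + strand), the main fatty acid receptor of liver, was the member with the lowest median fold percentile, 10.04. It was called in HFD-LSK replicates 2 and 3, at ranks 11787.5 and 8296, and in LFD-LSK replicates 2, 3 and 4, at ranks 8990.5, 9922 and 3603.5. The peaks rested on 10 to 20 fragments at the summit, and the 2 lists without a call were those whose weakest called summit held 16 and 21 fragments. Its widths of 1043 and 781 bp in HFD-LSK lay above the 542, 301 and 433 bp of LFD-LSK. With calls missing in each group, that order was not tested.

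Ppargc1a (chromosome 5, 51454249-52115853, − strand) encodes PGC-1α, the coactivator of PPARs that drives mitochondrial genes in muscle and brown fat. The start with 5 CG shown above was called in 0 lists. Calls came only from the far edge of the annotated gene, 548128 bp upstream of that start, in HFD-LSK replicates 2 and 3 and LFD-LSK replicate 3 (Fisher's exact p = 0.486). The ranks there were 12663.5, 2777.5 and 8039, and the widths 3960, 393 and 1167 bp. Each width is that of the highest-fold peak alone. The HFD-LSK replicate 2 peak (52112489-52116448) spanned a region that the other lists held as separate peaks. Those of HFD-LSK replicate 3 lay at 52113476-52113847, 52114729-52115121 and 52115668-52116118, and those of LFD-LSK replicate 3 at 52113474-52114235 and 52114813-52115979.

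A peak inside Ppargc1a was called in all 7 lists, at chr5:51551830-51553151, centred 15235 bp downstream of the start with 5 CG, with no annotated start of any gene within 1 kb. Its ranks were 3262, 7799 and 1091.5 in HFD-LSK and 4946.5, 1825, 5099 and 5471 in LFD-LSK, which overlapped (means 4051 ± 3423 and 4335 ± 1688, SD, difference -285, exact permutation p = 0.914). It was 1317, 1095 and 1217 bp wide in HFD-LSK and 272, 1277, 749 and 300 bp wide in LFD-LSK. Thus 3 of the 4 LFD-LSK peaks were narrower than every HFD-LSK peak, and LFD-LSK replicate 2 was within their range. The mean widths were 1210 ± 111 bp and 650 ± 472 bp (SD, difference 560 bp, exact permutation p = 0.143). The narrowest pair came from LFD-LSK replicates 1 and 4, the 2 shortest lists. Another 3 peaks in the gene body of Ppargc1a were called in 1 or 2 lists each, and the one called in HFD-LSK replicates 2 and 3 alone had a Fisher's exact p of 0.143. The one at 52113474-52114235, from HFD-LSK replicate 3 and LFD-LSK replicate 3, lay inside the start peak of HFD-LSK replicate 2.

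**Figure D2:**
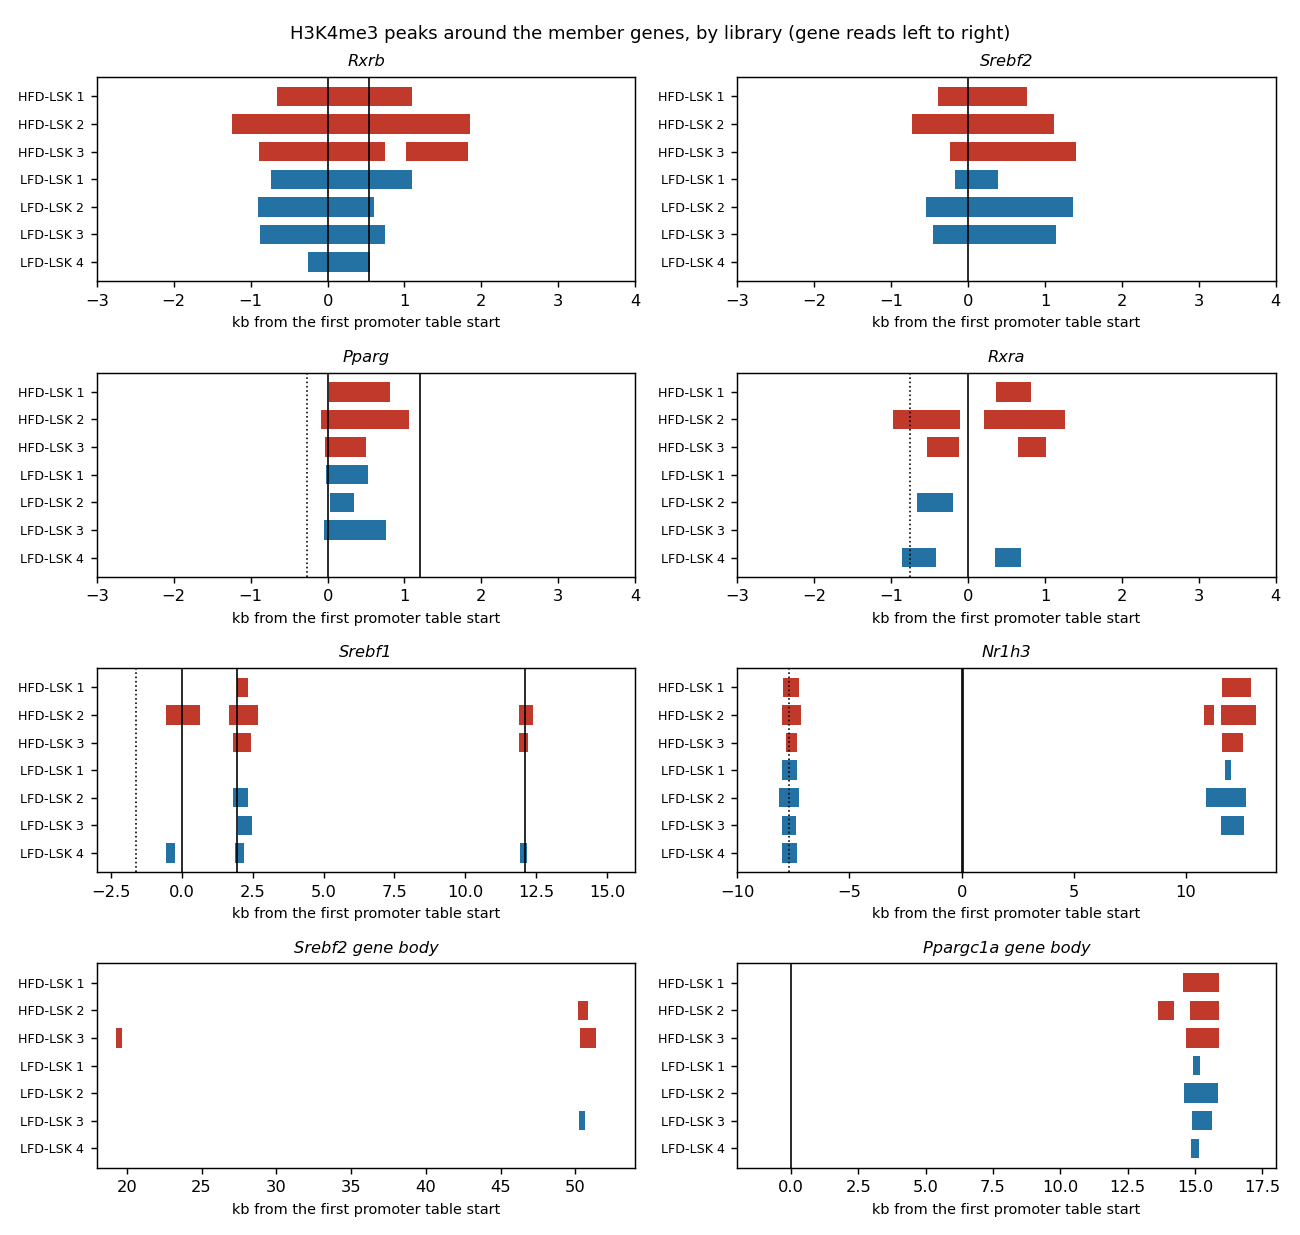
Called peaks (bars) of each library around 7 genes, with HFD-LSK in red and LFD-LSK in blue, on an axis in kb from the first start in the promoter table and with every gene read from left to right. Solid lines are starts in that table and dotted lines the outer edge of the gene. Rxra peaks lie on either side of its start, the peaks of Nr1h3 sit at its outer edge and not at its table starts, and the peak in Ppargc1a is called in all 7 libraries.

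Of the RXRs, Rxrb (chromosome 17, 34031812-34038403, + strand), the broadly expressed partner of the other receptors, had the highest median fold percentile of the 10, at 91.9, and the highest median width percentile, at 90.4. Its ranks were 1240.5, 189 and 718.5 in HFD-LSK and 110, 3862, 736.5 and 270.5 in LFD-LSK. The groups overlapped, and LFD-LSK replicate 2 stood far from the other 3 LFD-LSK lists. The mean rank was 716 ± 526 in HFD-LSK and 1245 ± 1765 in LFD-LSK (SD, n = 3 and 4, difference -529, exact permutation p = 0.886, adjusted p = 0.975). Without LFD-LSK replicate 2 the difference was 344, and it ranged from -907 without LFD-LSK replicate 1 to -265 without HFD-LSK replicate 2 when any other library was left out. The widths were 1761, 3101 and 1646 bp in HFD-LSK and 1828, 1506, 1625 and 814 bp in LFD-LSK. HFD-LSK replicate 2 was widest and LFD-LSK replicate 4 narrowest. The means of 2169 ± 809 bp and 1443 ± 440 bp differed by 726 bp (exact permutation p = 0.171, adjusted p = 0.724), and by 260 bp without HFD-LSK replicate 2. HFD-LSK replicate 3 had a second start peak of 812 bp that these widths leave out. With the widths of all start peaks summed, the difference was 997 bp (exact permutation p = 0.0571). The start of Slc39a7, a zinc transporter gene on the other strand, lies 122 bp away, so the peak covered the starts of both genes and cannot be assigned to Rxrb alone.

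Rxra (chromosome 2, 27676445-27763319, + strand), the main RXR of liver and myeloid cells, lay lower in the lists, with a median fold percentile of 22.6, at a start with 40 CG in 250 bases. It was called in 3 of 3 HFD-LSK lists, at ranks 8926.5, 8603 and 7045, and in 2 of 4 LFD-LSK lists, at ranks 10195 in replicate 2 and 4638.5 in replicate 4 (Fisher's exact p = 0.429). The peaks were 462, 1056 and 364 bp wide in HFD-LSK and 472 and 336 bp in LFD-LSK, with 7 to 26 fragments at the summit. In 3 lists (HFD-LSK replicates 2 and 3 and LFD-LSK replicate 4) there were 2 separate peaks, 1 on each side of the start, and no peak in any list covered the start in the promoter table itself. A start 32847 bp into the gene, with 1 CG, was called in 0 lists. Restricting every list to the 6921 peaks of the shortest, LFD-LSK replicate 4, removed the Rxra call from every other list, where its ranks were larger than that. The remaining call, in that uncut list, gave a difference of -25 percent points (HFD-LSK minus LFD-LSK) that rests on this library alone.

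Of the LXRs, Nr1h3 (LXRα; chromosome 2, 91184061-91202829, − strand), the form of macrophages and liver, was called in all 7 lists, but only at the outer edge of the gene. That edge lies 17 bp from the start of Acp2, a lysosomal acid phosphatase gene on the other strand, and the same peak stood for Acp2. The pair of starts in the promoter table, 7713 and 7794 bp further in, with 7 and 8 CG, were called in 0 lists. The ranks at the edge were 4742, 1273 and 10909 in HFD-LSK and 2821.5, 2516.5, 2128 and 3003 in LFD-LSK. The 4 LFD-LSK libraries lay close together, and the HFD-LSK libraries lay on either side of them. The mean rank was 5641 ± 4881 against 2617 ± 383 (SD, n = 3 and 4, difference 3024, exact permutation p = 0.229, adjusted p = 0.849), and the difference was 390 without HFD-LSK replicate 3 and 5208 without HFD-LSK replicate 2. The widths, 681, 867 and 461 bp in HFD-LSK and 672, 914, 627 and 663 bp in LFD-LSK, differed by -49.3 bp on average (exact permutation p = 0.8, adjusted p = 0.894). A peak in the gene body of Nr1h3, called in 1 list of each diet, lay within 1 kb of a start of the neighbouring gene Madd. That count depends on where the gene ends, at 91184061. The LFD-LSK replicate 2 peak (91182461-91184222) crossed this end. Peaks overlapping it but stopping short of the gene, at 91183568 or before, were present in every HFD-LSK list. The same held for LFD-LSK replicates 1 and 3, while LFD-LSK replicate 4 had no such peak.

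Nr1h2 (LXRβ; chromosome 7, 44549616-44553968, − strand), the form present in most tissues, was called in every list but LFD-LSK replicate 4. Its ranks of 7295, 11598.5 and 6559.5 in HFD-LSK overlapped the 5242, 6081.5 and 7665.5 of LFD-LSK replicates 1 to 3. The widths were 802, 1232 and 685 bp in HFD-LSK and 804, 852 and 882 bp in LFD-LSK. All summits lay 189 to 471 bp downstream of the start, before which there are 13 CG.

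Srebf2 (chromosome 15, 82147269-82205379, + strand), the master regulator of cholesterol synthesis, came next after Rxrb, with a median fold percentile of 57.6 and a median width percentile of 81.8. Its ranks were 5705.5, 1982 and 3826.5 in HFD-LSK and 4185, 2582 and 3870.5 in LFD-LSK replicates 1 to 3, while LFD-LSK replicate 4 had no call. The widths were 1160, 1852 and 1640 bp in HFD-LSK and 558, 1917 and 1592 bp in LFD-LSK, so the groups overlapped on each measure. In 5 of the 6 lists the summit lay at -72 to -70 bp from the start, inside the sequence shown above, and in HFD-LSK replicate 3 it lay 304 bp downstream.

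Srebf2 hosts a microRNA of the same pathway in an intron, miR-33, which is known to repress the cholesterol exporter Abca1. Its mature 5p strand, at chr15:82198127-82198147 on GRCm38.p6, reads as follows, with the seed (bases 2 to 8) in capitals.
mmu-miR-33-5p: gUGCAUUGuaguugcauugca
A peak at chr15:82197433-82198649, 50772 bp downstream of the Srebf2 start, appeared in 3 lists, those of HFD-LSK replicates 2 and 3 and of LFD-LSK replicate 3 (Fisher's exact p = 0.486). Its ranks there were 12011, 5793 and 9922 and its widths 673, 1070 and 369 bp. The peak of HFD-LSK replicate 3 reached over the hairpin, at 82198122-82198190, and the other 2 ended before it. A single list, HFD-LSK replicate 3, had another peak in the gene body, with 5 fragments at its summit.

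Srebf1 (chromosome 11, 60199084-60224186, − strand), the regulator of fatty acid synthesis, makes its forms SREBP-1a and SREBP-1c from separate starts. The outer edge was called in 0 lists. The 3 starts in the promoter table, 1605, 3559 and 13715 bp further in, were called in 2, 6 and 3 lists. The middle start, with 9 CG in the sequence shown above, was thus called more often than the last one, with 30 CG. Its ranks were 8098.5, 7975.5 and 961.5 in HFD-LSK and 7267, 8893.5 and 5060.5 in LFD-LSK replicates 2, 3 and 4. HFD-LSK replicate 3 stood far above the other 5 lists, at a fold percentile of 89.3 against 8.34 to 27.0. The widths were 381, 1034 and 608 bp in HFD-LSK and 548, 482 and 321 bp in LFD-LSK. HFD-LSK replicate 2 and LFD-LSK replicate 4 had calls at all 3 table starts, and no other list did.

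**Figure D3:**
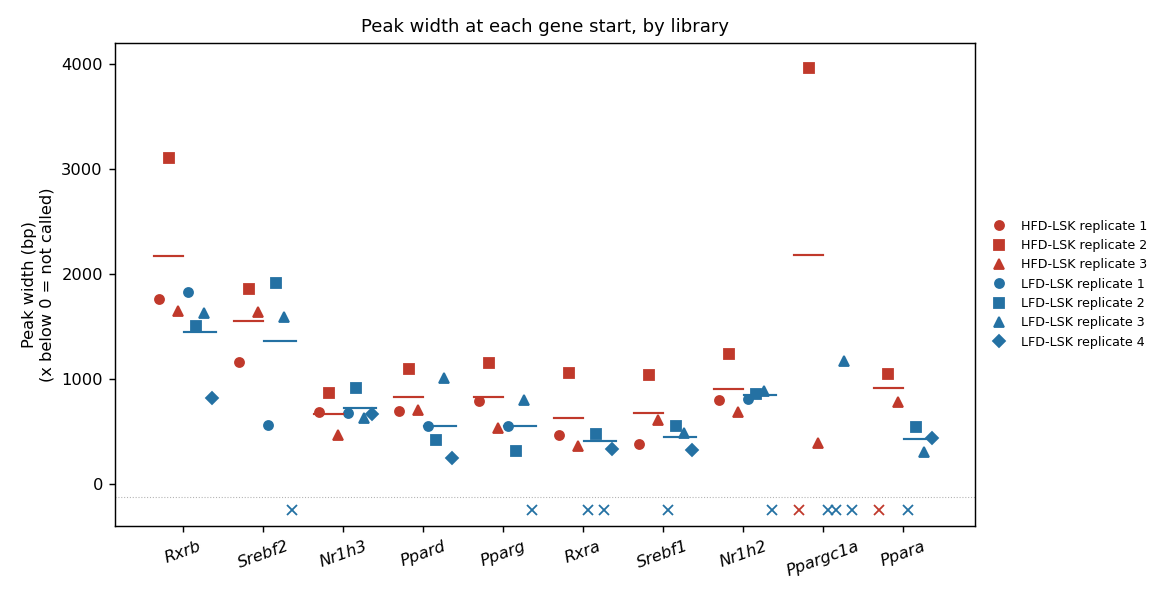
Width in bp of each gene's start peak (y axis) by library, with the genes in the same order and the same symbols as in the plot of fold percentiles; lines are means of called libraries where 2 or more called the gene, and crosses below 0 mark libraries without a call. The start peaks of Rxrb and Srebf2 are the widest in most libraries, and the single widest, 3960 bp, is that of Ppargc1a in HFD-LSK replicate 2.

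Ordered by their median fold percentile, the genes ran Rxrb (91.9), Srebf2 (57.6), Nr1h3 (56.1), Ppard (29.7), Pparg (24.9), Rxra (22.6), Srebf1 (21.3), Nr1h2 (20.9), Ppargc1a (14.4) and Ppara (10.04). Neighbours in that order were compared within libraries where at least 6 lists called both, which held for 4 pairs. Rxrb lay 30.7 ± 26.0 points above Srebf2 (SD, n = 6 lists, higher in 5 of 6, exact sign-flip permutation p = 0.0625, adjusted p = 0.125). Ppard lay 19.6 ± 17.3 points above Pparg (n = 6 lists, higher in 5 of 6, exact permutation p = 0.0625, adjusted p = 0.125). Nr1h3 lay 13.8 ± 24.7 points above Ppard (n = 7 lists, higher in 5 of 7, exact permutation p = 0.188, adjusted p = 0.25). Srebf2 minus Nr1h3 was -0.190 ± 27.4 points (n = 6 lists, exact permutation p = 0.969). Srebf2 was the higher in 1 of 6, HFD-LSK replicate 3, and Nr1h3 in the other 5, so the order of this pair by median did not hold within most lists. None of the 4 neighbouring pairs differed beyond the spread between libraries at an adjusted p under 0.05. The smallest possible exact permutation p was 0.03125 with 6 lists and 0.0156 with 7, so no pair could have passed adjustment on its own. The order was taken from the same percentiles, so these comparisons do not test it independently.

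For each gene called in part of the lists, the 2 protein-coding genes with the same calls and the nearest ranks were noted. Ppara shared its calls with 88 other genes, and Mindy4 and Slc16a3 were nearest, with mean rank differences of 1088 and 1113 over 5 lists. Pparg, Nr1h2 and Srebf2, which lacked a call in LFD-LSK replicate 4 only, shared that pattern with 1584 genes. The nearest were Noc2l and Ptpn13 to Pparg, Map3k6 and Ypel3 to Nr1h2, and Gtf2i and Tefm to Srebf2, at mean rank differences of 538 to 935 over 6 lists. Srebf1 shared its calls with 629 genes (nearest Kdm8 and Spats2l), Ppargc1a with 152 (Plcb1 and Glt28d2) and Rxra with 86 (Septin8 and Cdo1).

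The 10 genes have 17 starts in the promoter table. The 5 of them called in 0 lists held 1 to 8 CG in the 250 bases before the start, and the 12 called in 2 or more lists held 9 to 40. Over all protein-coding starts the median was 3 CG for those called in 0 lists and 20 for those called in all 7. Of short motifs searched on either strand, from 250 bases before to 50 after the start, the GC box GGGCGG occurred in 10 of the 17 member promoters (35.7% of 32851 promoters). The CCAAT box occurred in 6 (37.4%), and the receptor half-site AGGTCA in 3 (16.3%), namely at 2 starts of Pparg and at the uncalled start of Rxra. The E-box CACGTG (7.15% of promoters), the sterol element TCACNCCAC (1.24%), the PPAR-type repeat AGGTCANAGGTCA (0.0396%) and the LXR-type repeat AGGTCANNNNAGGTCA (0.0152%) occurred in 0. The repeats contain the half-site, and a match or its absence describes these letters only.

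**Figure D4:**
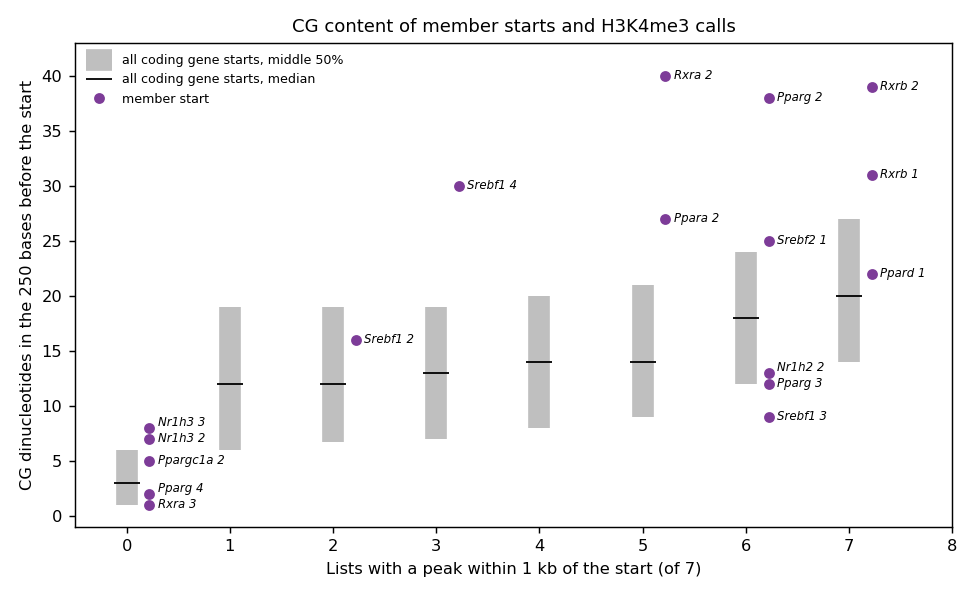
CG dinucleotides in the 250 bases before a start (y axis) against the number of lists, of 7, with a peak within 1 kb (x axis). Grey bars are the middle 50% and black ticks the median of all protein-coding starts, and purple points, drawn to the right of each bar, are the 17 member starts, numbered from the outer edge of each gene inward. The 5 uncalled member starts lie at 8 CG or below.

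The partners, regulators and targets of these factors were followed in 5 lists of 65 genes in all. Of the 65, 24 were called in all 7 lists, beside 22.3% of all protein-coding genes, and 15 in none, where 54.6% of all protein-coding genes were called in at least 1 list. In every list of 1 diet and none of the other, 0 were called, beside 0.290% of all starts called at least once. The rank test was passed at p under 0.05 by 2 of the 24 and the width test by 1, against 3.77% and 3.62% of all starts called in all 7 lists. None of these pathway genes passed after adjustment over all genes, and in this design no start could on its own.

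Of 18 partner receptors and coregulators, 10 (55.6%) were called in all 7 lists, beside the 22.3% of all protein-coding genes, 4 in part and 4 in none. Ppargc1b (PGC-1β), the relative of Ppargc1a, ranked at 7886, 3542 and 6359.5 in HFD-LSK and 3519, 2793.5, 1417.5 and 3173.5 in LFD-LSK. Every HFD-LSK rank number was larger than every LFD-LSK one (difference 3203, exact permutation p = 0.0286, adjusted p = 0.758). The lists differ in length, and rank numbers grow with it. As a percentage of list length the difference had p = 0.257 (exact permutation). Ncoa2, a receptor coactivator, had start peaks of 2720, 2991 and 2613 bp in HFD-LSK and 2567, 2523, 2354 and 2381 bp in LFD-LSK, with no overlap (difference 318 bp, exact permutation p = 0.0286, adjusted p = 0.720). Without HFD-LSK replicate 2 the difference was 210 bp, and the median difference over all starts called in all 7 lists was 279 bp. Its rank was near the top in each diet (168 ± 52.6 and 411 ± 627, SD). The acetyltransferase Ep300 (mean rank 1182 over the 7 lists) and the corepressor Ncor1 (1260) were the next highest in the lists and passed neither test.

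Of 8 genes that process or degrade SREBPs, 5 (62.5%, beside 22.3%) were called in all 7 lists and 3 in part, and 0 passed a test. Rnf139 (mean rank 1289) encodes a ubiquitin ligase of the endoplasmic reticulum, Mbtps1 (2509) encodes the protease that first cuts SREBPs, and Fbxw7 (2966) marks nuclear SREBPs for destruction. Fbxw7 lay at ranks 56 to 646 in the 4 LFD-LSK lists and at 155.5, 8347 and 11051 in HFD-LSK (exact permutation p = 0.0857, adjusted p = 0.813).

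Of 14 PPAR targets, 3 (21.4%, near the 22.3% of all protein-coding genes) were called in all 7 lists, 7 in part and 4 in none. Among the 3 were the fatty acid oxidation genes Acadl (mean rank 970) and Acadm (1277), and neither passed a test. Of 10 LXR targets, 2 (20%, again near 22.3%) were called in all 7 lists, 4 in part and 4 in none. Abcg1, a cholesterol exporter, ranked at 5608.5, 7507.5 and 10525 in HFD-LSK and 5354.5, 5309, 3870.5 and 5313 in LFD-LSK. The rank numbers again did not overlap (difference 2919, exact permutation p = 0.0286, adjusted p = 0.758). Without HFD-LSK replicate 3 its difference was 1596, and as a percentage of list length it had p = 0.514 (exact permutation). Lpcat3, a phospholipid remodelling enzyme, was the other LXR target in all 7 lists (mean rank 4591), and the desaturase gene Scd1 and the sterol transporter gene Abcg5 were called in none.

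Of 15 SREBP targets, 4 (26.7%, beside 22.3%) were called in all 7 lists, 8 in part and 3 in none, and 0 passed a test. Among the 4 were Hmgcs1 (mean rank 2077), Idi1 (2738) and Sqle (5470), of the cholesterol synthesis pathway. Median differences between the diets, over the members of each of the 5 lists called in all 7, ran from 264 to 1812 places for rank and from 33.2 to 314 bp for width, beside 663 places and 279 bp over all protein-coding starts.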

How the data were processed

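H3K4me3 CUT&Tag peak lists of single libraries were used, 3 from HFD-LSK and 4 from LFD-LSK, grouped by their labels, and no list was a copy of another. The submitters' processing notes name Trim Galore, Bowtie2, Picard, MACS2, bedtools, HOMER, featureCounts and the build GRCm38, while the study's methods name GRCm39 and SEACR. The deposited lists have the MACS2 format, and their positions match gene starts of GRCm38. The caller's version and threshold are not given in the sources used here. The values that the authors deposited with a peak are its fold enrichment, a ratio of the summit to the local background, a −log10 p and a −log10 q against that background, and an integer score, which was not used. Every −log10 p was above 5. These values depend on the depth of their own library and may depend on its IgG control, so ranks within a list and not levels were compared. Read totals are not in the lists. Fragments at each summit were solved from fold and p as MACS2 computes them, to a relative tolerance of 5e-05, for 100% of peaks. They are inferred values and rest on a scale fitted to each library, from 0.0958 (LFD-LSK replicate 1) to 0.913 (HFD-LSK replicate 3).

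Gene starts were the outer edge of each RefSeq gene on GRCm38.p6 and the starts of the RefSeq promoter table on the same build. Strands of 3948 genes outside that table came by symbol from the GENCODE annotation of GRCm39, whose coordinates were not used. A start was found for 97.9% of 21900 protein-coding genes. Genes outside the promoter table have 1 start, so a call at another start of theirs is missed. A start was called in a list with a peak within 1 kb of it. Calls were tested by Fisher's exact test, and ranks and widths of starts called in all 7 lists by exact permutation of the difference of means, two-sided, over the 35 ways to place 3 and 4 labels, with Benjamini-Hochberg adjustment over all protein-coding starts. Steps were tested on simulated lists. The alternatives, among them a −log10 q of at least 5, equal list lengths and other windows, are given with the closing results. Python 3.11.15, numpy 2.4.6, pandas 2.3.3 and scipy 1.17.1 were used.

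The members and gene lists were chosen with earlier results of these data known. Named genes are the 10 members and at most 4 genes of each list: first those past a test, then those in all 7 lists with a mean rank nearest the top, then the first in list order called in none. For each member called in part of the lists, the 2 genes with the same calls and nearest ranks are named. Some genes that the rule names are not reported here.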

Additional observations from a re-analysis of the deposited data

Results flagged for a closer look

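Among the 6 sets of 4 LFD-LSK values that could be examined for a library far from the others (rank and width of Ppard, Rxrb and Nr1h3), 2 were singled out by Dixon's criterion, which chance meets in about 1 of 20 sets. The rank of Rxrb in LFD-LSK replicate 2 was 3862, against 110 to 736.5 in the other 3 libraries. The width of the Nr1h3 peak in LFD-LSK replicate 2 was 914 bp, against 627 to 672 bp in the others. Both values came from the same library, and the cause was not tested.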

How the results depend on the processing

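The count of members past the rank or the width test was 0 under every alternative that could give a p under 0.05. Only members called in every list were tested, which left 1 at a −log10 q of at least 5 and at equal list length. With the promoter table starts alone it left 2. Without any 1 library, with the replicate block, or without the 2 shortest lists, the smallest possible p was above 0.05, so those settings say nothing about the calls. The 3 members called in every list became 1 at a −log10 q of at least 5, 1 at equal list length, 6 under the replicate block and 7 without the 2 shortest lists (LFD-LSK replicates 1 and 4, an alternative chosen after seeing the data), and ranged from 3 to 6 when 1 library was left out, with 6 without LFD-LSK replicate 4. The 24 pathway genes became 12 at equal list length, 13 with the promoter table starts alone, and 38 without the 2 shortest lists, the last 2 settings also chosen after seeing the data. The 34 starts called in all libraries of 1 diet only became 70 at a −log10 q of at least 5 and 55 where a peak had to cover the start. The 180 starts past the rank test became 113, 52 and 116 at a −log10 q of at least 5, at equal list length and where a peak had to cover the start, 119 when ranked among starts called in all lists and 115 as a percentage of the list. The 173 past the width test became 95, 61 and 109 under the same 3 settings.

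Directions that turned were none of them past a test. The call share of Ppara (-8.33 percent points, HFD-LSK minus LFD-LSK) became 16.7 at a −log10 q of at least 5, 41.7 where a peak had to cover the start and ranged from -33.3 (without LFD-LSK replicate 1) to 25 (without HFD-LSK replicate 1) when 1 library was left out. At equal list length Pparg and Nr1h2 each became -16.7 and Rxra -25, the last from the call of LFD-LSK replicate 4 alone. The rank difference of Ppard became -0.0383 as a percentage of the list, while that of Rxrb ranged from -907 to 344, the latter without LFD-LSK replicate 2. The width difference of Nr1h3 ranged from -148 to 55, turning to 55 when HFD-LSK replicate 3 was dropped and to 15.7 when LFD-LSK replicate 2 was. The rank difference of the peak inside Ppargc1a ranged from -2159 to 1195 when 1 library was left out, turning to 94 without LFD-LSK replicate 4, to 110 without HFD-LSK replicate 1 and to 1195 without HFD-LSK replicate 3. The rank difference of Abcg1 had an exact permutation p of 0.2 when ranked by −log10 p, and 0.371 among starts called in all lists, where that of Ppargc1b had 0.229. The causes were not tested.

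Same-numbered libraries correlated in their rank deviations at 0.0778, 0.0182 and -0.00221, none over 0.1. The largest correlation of any HFD-LSK with any LFD-LSK library was 0.0842, for HFD-LSK replicate 3 with LFD-LSK replicate 4. The labels name no cohort or litter behind a number, so the numbers were not taken as pairs. Whether they mark a shared cohort is not known. Under the replicate block (pairs 1 to 3, smallest possible exact p 0.25), the rank differences were 1866 for Ppard, -854 for Rxrb and 3153 for Nr1h3.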
